A study of Rattus norvegicus with 4 samples.

Results

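Kidney proximal tubules were compared with whole choroid plexus, gene by gene, in 9-week-old Sprague Dawley rats. The tubules of 5 pooled males gave 1 library. The choroid plexus of 5 pooled males gave a male library and that of 5 pooled females a female library. The paper states that the kidneys came from the male rats, so the tubule and male choroid plexus pools may hold the same animals. A further library, of choroid plexus epithelial cells of 10 pooled males sorted by FACS on a label for NKCC1, served only as an alternative to the whole tissue. The labels name no treatment and no genotype in any group. The tubules had been released from minced kidney with collagenase and pronase, whereas the choroid plexus was taken whole, so that tissue and preparation cannot be told apart. The female library also differs in sex from the tubules, and all 3 libraries are pools without replicates, so that neither a p-value nor a spread over animals is printed.

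The values are TPM, a transcript level corrected for length that sums to 1000000 in a library. The 13 mitochondrially encoded genes were removed and the rest rescaled to that sum, since they held 70.7% of the expected counts of the proximal tubule library and 5.34% and 4.32% of those of the male and female choroid plexus. Genes at or above 0.5 TPM in the proximal tubule, or in both choroid plexus libraries, were compared, which was 13822 of 32883 gene IDs. A gene is called higher on a side when log2(TPM + 1) differed by more than 1, a factor of 2, in the same direction from each of the 2 choroid plexus libraries. The added 1 makes the differences of genes with low TPM too small. In such bulk libraries, fewer cells of a type and less RNA per cell cannot be told apart.

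The proximal tubule takes back most of what the glomerulus filters: glucose, amino acids, phosphate, bicarbonate, salt and water. Na+-coupled carriers in the brush border bring the solutes into the cell, and the Na+/K+-ATPase of the basolateral membrane maintains the gradient that drives them. Organic anions and cations of the blood move the other way, into the urine. The choroid plexus secretes the cerebrospinal fluid, with NKCC1 (SLC12A2), a cotransporter of Na+, K+ and Cl-, the water channel AQP1 and its Na+/K+-ATPase in the luminal membrane, and it makes transthyretin (TTR) and other secreted proteins.

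The tubule library was read at a lower effective depth and had an unusual spread of counts. Without the mitochondrially encoded genes it held 7352952 expected counts, against 26813157 and 24280913 in the male and female choroid plexus. It had 6097 genes at or above 0.5 TPM, against 13670 and 13479. Of its genes with a count above 0, 2.65% had under 10 counts, against 15.8% in either choroid plexus library, and 34.5% had 30 to 100 counts, against 10.3% and 10.8%. Its count was 0 for 670 of the 1985 highest choroid plexus genes with a name, while 13 of these had 1 to 9 counts. Genes that nearly every cell uses were among the zeros: RPS6, RPLP2, TUBA1B and CD81 were listed at 0 in the tubules, with 584.6, 447, 906 and 1763 TPM in the male choroid plexus. ACTB had 36.0 TPM in the tubules against 1270 and 999.7 TPM, whereas EEF1A1 had 3732 against 3339 and 3273 TPM. The genes of this check were picked with their levels known. A zero of the tubule library is therefore given below only as listed at 0, without a fold. Such genes still enter the medians and the calls on the choroid plexus side, which rest on that 0.

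**Figure D1:**
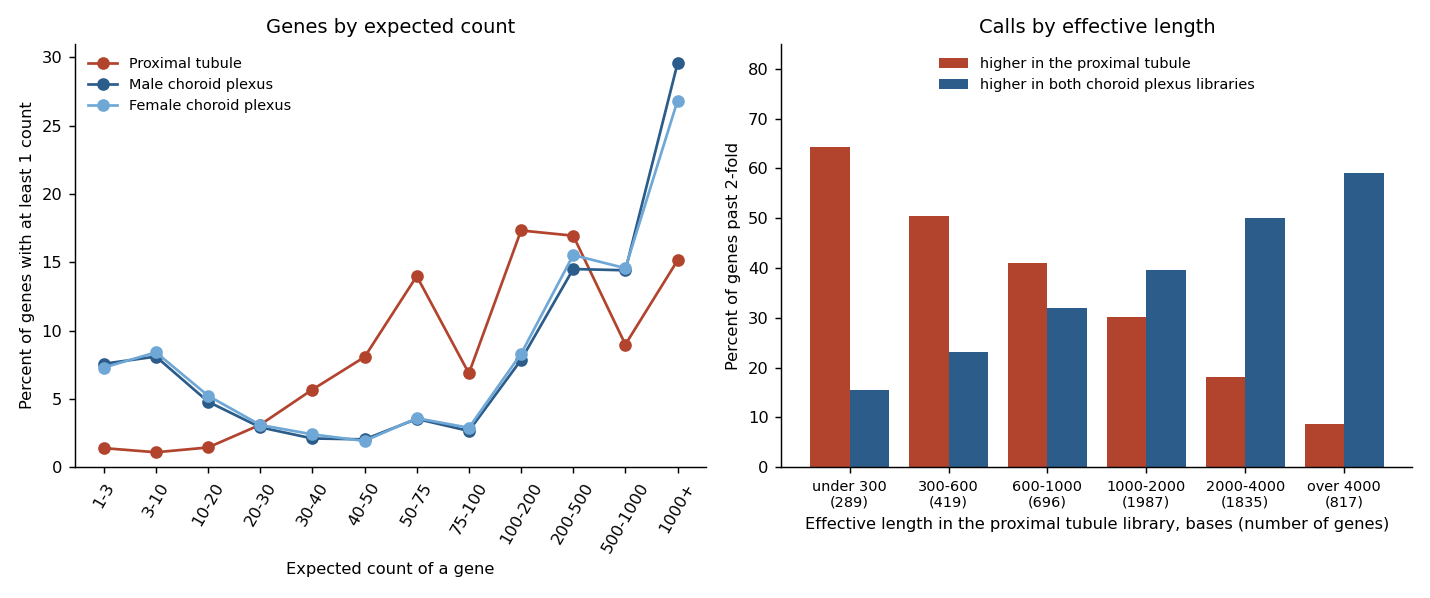
Left, the percent of genes with at least 1 expected count that fell in each class of counts (classes of unequal width), for the proximal tubule, male and female choroid plexus libraries; the tubule line is lowest under 20 counts and highest between 30 and 500. Right, of the genes with at least 10 counts in the tubules, the percent past 2-fold in either direction, by effective length; the percent higher in the tubules falls from 64.4% under 300 bases to 8.57% over 4000 bases.

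Named markers of the proximal tubule were mostly higher in the tubule library. Of 15 defining markers, 13 had a gene ID, and 12 of the 13 (92.3%) were higher in the tubules, against 12.2% of all genes. The exception was the organic anion transporter SLC22A8 (OAT3), with 14.9 TPM in the tubules against 132 and 107 TPM in the male and female choroid plexus. The endocytic receptors LRP2 and CUBN were not paired with an ID and were not analysed here. Markers below 0.5 TPM in the choroid plexus had an ID only if the study listed them for this same tubule library. The share of 92.3% is therefore no independent evidence of a direction. The phosphate carrier SLC34A1 (NaPi-IIa) had 67.7 TPM and the sulphate carrier SLC13A1 385 TPM, and neither had a count in the choroid plexus. All 13 markers summed to 11337 TPM in the tubules, of which SLC7A13 held 7371 and SLC3A1 3125 TPM, and to 157 and 129 TPM in the male and female choroid plexus.

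Markers of later nephron segments were present too. All 10 with an ID had at least 10 counts in the tubule library. Of these, 8 (80%) were higher there than in the choroid plexus, against 12.2% of all genes. All 10 summed to 131.7 TPM, of which KCNJ1 (ROMK), the K+ channel of the thick ascending limb and collecting duct, made up 89.3 TPM. The Na+-K+-2Cl- cotransporter of the thick ascending limb, SLC12A1 (NKCC2), had 17.2 TPM from 776 counts. The Na+-Cl- cotransporter of the distal convoluted tubule, SLC12A3, was at 2.12 TPM, and the collecting duct genes AQP3 and RHCG were at 10.3 and 2.90 TPM. AQP2, UMOD and CALB1 were not paired with an ID. Here, too, genes below 0.5 TPM in the choroid plexus had an ID only if the study listed them for this tubule library. Neither the share of 80% nor the presence of counts for all 10 is therefore independent evidence. The part of other segments in the results was not tested.

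Of 14 choroid plexus markers, 13 (92.9%) were higher in the choroid plexus, against 68.8% of all genes, and 9 were listed at 0 in the tubules. TTR had 1 count in the tubules (0.251 TPM) against 260358 and 305083 TPM. The folate receptor FOLR1 had 37.2 TPM in the tubules against 2246 and 2234 TPM, and the FGF23 co-receptor klotho (KL), which the kidney also makes, 1.43 against 759 and 644 TPM. The remaining marker, the prolactin receptor PRLR, was within a factor of 2, with 203 TPM in the tubules against 152 and 124 TPM, though its log2 difference was -1.16 with mitochondrially encoded genes kept and 1.59 with median-of-ratios scaling. Of 16 genes of blood, endothelial, mural and immune cells, 11 had an ID, and all 11 were higher in the choroid plexus, against 68.8% of all genes. These 11 summed to 329 TPM in the tubules against 9492 and 4741 TPM, and the haemoglobin gene HBB held 204 TPM of the tubule sum. TIE1 and PDGFRB of this list were listed at 0 in the tubules, and the part of these cells in the results was not tested. Names came from lists of choroid plexus genes and of transporters and channels, so other genes absent from the choroid plexus could not enter. The shares of the choroid plexus markers and of the blood, endothelial, mural and immune genes are therefore no independent evidence of a direction.

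**Figure D2:**
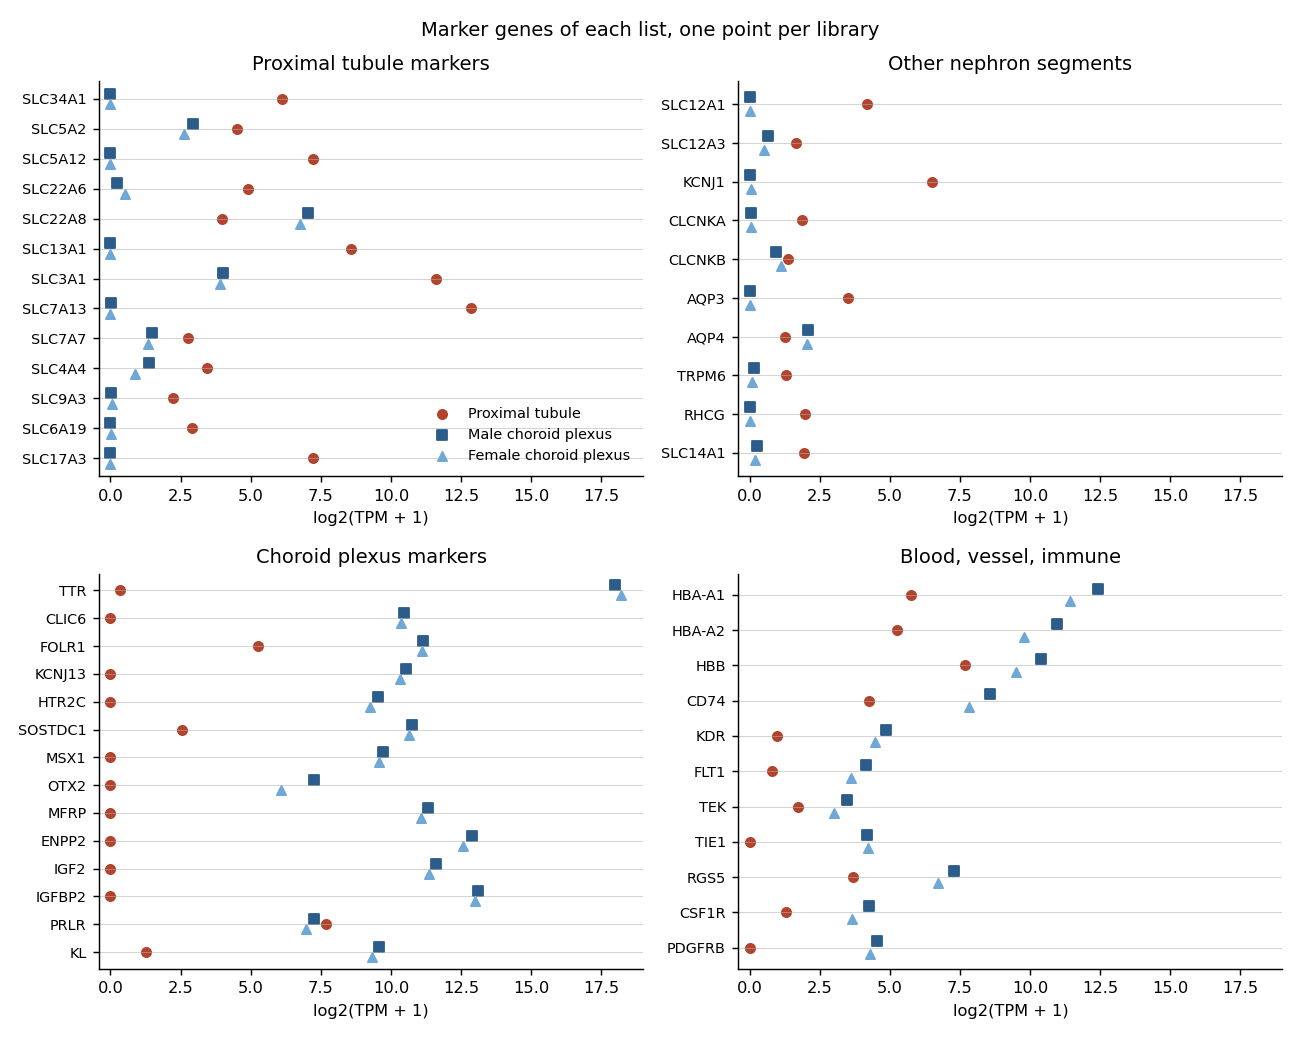
Each panel plots log2(TPM + 1) of the genes of a marker list, with 1 point for the proximal tubule (circle), the male (square) and the female (triangle) choroid plexus; a tubule point at 0 is a gene listed at 0 or near it. The tubule points lie to the right for 12 of 13 proximal tubule markers and to the left for 13 of 14 choroid plexus markers and for all 11 blood, vessel and immune genes.

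Over all genes, the choroid plexus side held far more calls. Of the 13822 genes, 1689 (12.2%) were higher in the tubules and 9516 (68.8%) were higher in the choroid plexus, with 1854 within a factor of 2 of both libraries. The median of log2(TPM + 1) in the tubules minus that of the choroid plexus was -2.27, and 7606 of the genes (55.0%) were listed at 0 in the tubules. Among the 6043 genes with at least 10 counts and 0.5 TPM in the tubules, 1682 (27.8%) were higher in the tubules, 2552 (42.2%) were higher in the choroid plexus, and the median difference was -0.56. With median-of-ratios scaling, which raised the scale of the tubules against the choroid plexus by 1.03 on the log2 scale, the median difference of the same 6043 genes was 0.35, with 2443 (40.4%) and 1775 (29.4%) calls, so that the larger side of the split turned over. The choroid plexus side stayed the larger over all genes, with 2464 against 8462 calls. With the mitochondrially encoded genes kept, 14 of the named genes higher in the tubules were no longer past a factor of 2: KCNJ15, PDZD11, RHCG, SLC12A3, SLC13A2, SLC2A5, SLC39A8, SLC4A4, SLC51A, SLC5A10, SLC5A2, SLC5A8, SLC7A7 and SLC9A3.

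Both tissues shared 5458 genes at the cut-off with at least 10 counts in the tubules. These genes made up 78.0% of the TPM of the tubule library, but 46.8% and 44.7% of that of the male and female choroid plexus. A further 511 genes were at the cut-off in the tubules alone, and they made up 21.1% of the tubule TPM. The 7725 genes at the cut-off in the choroid plexus alone made up 52.9% and 54.9% of the TPM there, and 7606 of them were listed at 0 in the tubules. At the cut-off itself the count was small, since the 50 genes at 0.5 to 0.6 TPM in the tubules had a median of 24.5 counts and the 23 genes at 0.4 to 0.5 TPM a median of 19.

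The direction of the calls moved with the effective length, the part of a transcript from which fragments can start. Among the 289 genes under 300 bases with at least 10 counts in the tubules, the median log2 difference was 2.10 and 64.4% were higher in the tubules. Among the 817 genes over 4000 bases it was -1.59, and 8.57% were higher in the tubules while 59.1% were higher in the choroid plexus. Across all 6043 genes Spearman's rho of the difference and the length was -0.31, which is a description across genes that share libraries. The part of length in the results was not tested.

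Of the 10 highest genes of the tubule library, 5 had a name. These 10 genes held 23.2% of its TPM, against 35.2% and 40.3% for the 10 highest of the male and female choroid plexus. ENSRNOG00000005858 had 70411 TPM and no count in the choroid plexus, and ENSRNOG00000019470 had 26039 TPM against 0.0327 and 0.0320 TPM. These IDs and 3 others of the 10 had no name. LOC108352650 had 27829 TPM against 2481 and 2792 TPM, on an effective length of 28.1 bases in the tubules, which makes its level uncertain. The named others were the glutathione transferase GSTA1, with 12057 TPM against 1213 and 1193 TPM, the ribosomal protein RPL41 (12031 against 3370 and 3674 TPM), collectrin (CLTRN, 10888 against 325 and 263 TPM) and the cytochrome c oxidase subunit COX6C (10856 against 1696 and 1813 TPM). All 5 named genes were higher in the tubules.

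The named genes that differed most on the tubule side were transport genes. The 10 largest log2 differences were those of SLC7A13 (12.83), SLC16A4 (9.51), SLC13A1 (8.59), FXYD2 (8.48), KCNJ16 (7.71), SLC3A1 (7.66), SLC17A3 (7.23), SLC5A12 (7.22), SLC51B (7.05) and ABCG2 (6.77). The place of FXYD2 rests on 15 counts over an effective length of 4 bases and cannot be set beside the others. The names ranked come from lists of the highest choroid plexus genes and of the transporters and channels of either tissue. Other tubule genes could not enter this ranking. On the choroid plexus side the largest were secreted or lysosomal proteins: TTR, IGFBP2, CLU, ENPP2, PTGDS, PSAP, TF, MDK, CST3 and IGF2. Of these, TTR had 1 count and CST3 (cystatin C) 57 counts in the tubules, at 11.1 TPM against 36462 and 46763 TPM, and the other 8 were listed at 0, so that their place in this order follows their choroid plexus level alone.

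Transporter RNA of the tubules was concentrated in few genes. Over 263 listed transporters and pumps the TPM summed to 14080 in the tubules, 17948 in the male and 15752 in the female choroid plexus. SLC7A13 alone held 52.4% of the sum in the tubules and SLC3A1 22.2%. In the choroid plexus the highest transporter, SLC22A17, held 14.6% and 16.8%, and the next, ATP1B1, 9.44% and 9.49%. The number of genes that together reached 90% of the sum was 7 in the tubules against 56 and 54. Of 370 listed transporters, pumps and channels in all, 59 were higher in the tubules (15.9%) and 234 in the choroid plexus (63.2%), and 236 were listed at 0 in the tubules. These shares lay near the 12.2% and 68.8% of all genes.

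**Figure D3:**
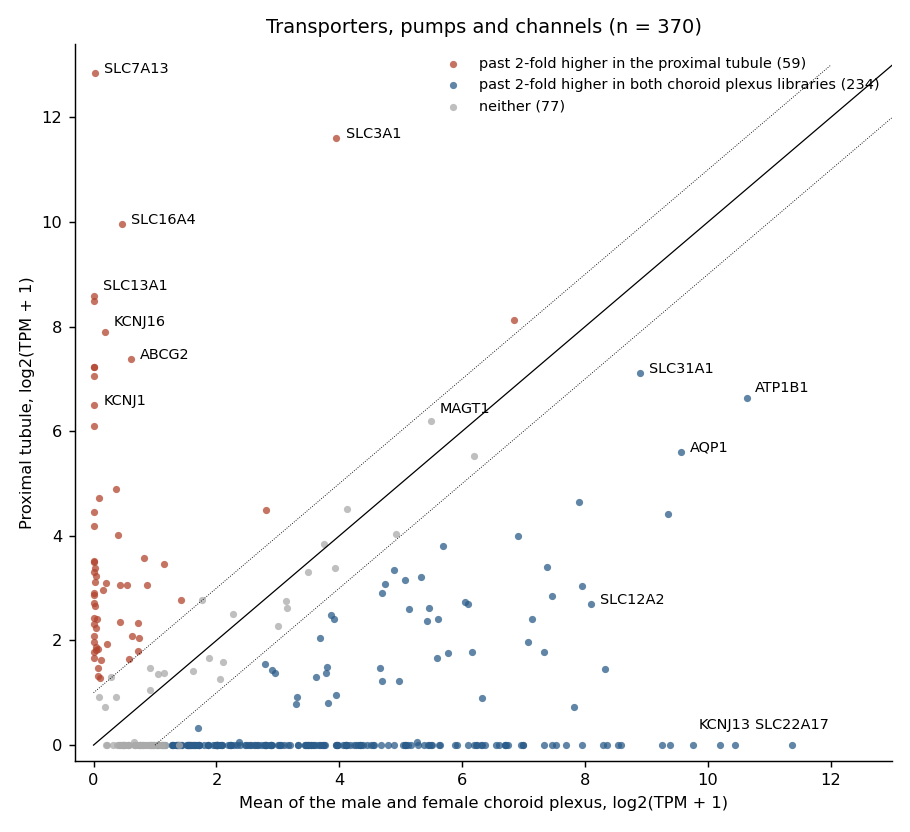
Each point is 1 of 370 transporters, pumps and channels, with log2(TPM + 1) of the mean of both choroid plexus libraries on the x axis and of the proximal tubule on the y axis; the solid line marks equal levels, the dotted lines a factor of 2. The 59 genes higher in the tubules lie above the upper dotted line, most of them near the left edge and SLC7A13 at the top, and most of the 234 higher in the choroid plexus lie on the bottom edge, where the tubules were listed at 0.

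SLC7A13, SLC3A1 and CLTRN were the highest amino acid transport genes of the tubules. SLC7A13 (AGT1, ENSRNOG00000024903), a carrier of aspartate, glutamate and cystine, had 7371 TPM in the tubules from 135725 counts, against 0.0218 TPM (1 count) in the male and 0 in the female choroid plexus. The ratio of its counts, scaled for length and depth, was 588572, with a 95% interval of 105635 to 23247509 that covers counting error only. SLC3A1 (rBAT, ENSRNOG00000007006), the heavy chain that brings such carriers to the brush border, had 3125 TPM against 15.01 and 13.9 TPM, a 216-fold difference. SLC7A13 thus stood 2.36 times as high as its heavy chain in the tubules, whereas the better known partner of SLC3A1, the cystine carrier SLC7A9, had 20.8 TPM in the tubules and no count in the choroid plexus. CLTRN, the collectrin that the neutral amino acid carriers of the SLC6 family need at the membrane, was 37.0-fold higher in the tubules.

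The carriers that collectrin serves were themselves low. SLC6A19 (B0AT1) had 6.46 TPM from 244 counts, against 0 and 0.0107 TPM (1 count), and SLC6A18 had 6.35 TPM and no count in the choroid plexus. The glutamate carrier SLC1A1 had 7.53 TPM against 0.0982 and 0.203 TPM. The related SLC6A20, a carrier of proline and other imino acids, was listed at 0 in the tubules, with 43.6 and 45.3 TPM in the choroid plexus. Of the peptide carriers, the high-affinity SLC15A2 (PEPT2) was within a factor of 2, with 21.9 TPM against 18.2 and 14.7 TPM, while SLC15A1 (PEPT1) had 1 count in the tubules against 4.14 TPM in both choroid plexus libraries.

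Other carriers of the list were higher in the choroid plexus. SLC38A3 (SNAT3), a glutamine carrier, had 1.76 TPM in the tubules against 325 and 315 TPM. The heavy chain SLC3A2 (4F2hc) had 6.204 TPM against 179.8 and 169 TPM, and its light chain SLC7A8 (LAT2) 5.67 against 68.6 and 61.7 TPM. The other light chain, SLC7A7 (y+LAT1), was higher in the tubules with 5.85 against 1.80 and 1.54 TPM. In all, 8 of the 16 amino acid and peptide genes were higher in the tubules and 7 (43.8%) in the choroid plexus, against 12.2% and 68.8% of all genes, with 3 listed at 0 in the tubules, and the median difference was 0.87 against -2.27 over all genes tested. It was -0.47 with the mitochondrially encoded genes kept. Genes below 0.5 TPM in the choroid plexus had an ID only if the study listed them for this same tubule library. The shares of this list, and of the carrier and channel lists below, are therefore no independent evidence of a direction.

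Sugar carriers were low in the tubule library. SLC5A2 (SGLT2, ENSRNOG00000020039), the main glucose carrier of the early tubule, had 21.6 TPM against 6.74 and 5.197 TPM. The basolateral SLC2A2 (GLUT2) had 4.38 TPM in the tubules and no count in the choroid plexus, which made it at least 60.3-fold higher against a floor of 3 counts per library. SLC5A10 had 2.15 TPM and likewise no count in the choroid plexus. The fructose carrier SLC2A5 (GLUT5) had 3.26 TPM against 0.797 and 0.277 TPM, but 3.82 TPM in the FACS library, against which its log2 difference was -0.18. SLC2A1 (GLUT1) and SLC2A12 were listed at 0 in the tubules, with 73.7 and 70.6 TPM and 120 and 85.8 TPM in the choroid plexus. Of 9 sugar carriers with an ID, 5 (55.6%) were higher in the tubules and 3 (33.3%) in the choroid plexus, against 12.2% and 68.8% of all genes, and 3 were listed at 0 in the tubules. SLC5A1 (SGLT1) was not paired with an ID.

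Phosphate and sulphate carriers divided by gene between the tissues. SLC13A1 (NaS1), the Na+-sulphate carrier of the brush border, had 385 TPM in the tubules and no count in the choroid plexus, and was at least 7763-fold higher. Its relative SLC13A4 (NaS2) was listed at 0 in the tubules and had 684 and 527 TPM in the choroid plexus. SLC34A1 was at least 1144-fold higher in the tubules, whereas the phosphate carrier SLC20A2 (PiT2) was listed at 0 there with 198 and 169 TPM in the choroid plexus. SLC17A3 (NPT4), an exporter of urate and other organic anions, had 149 TPM and no count in the choroid plexus. The phosphate exporter XPR1 had 4.34 TPM against 55.2 and 40.1 TPM. Of 13 genes with an ID, 5 (38.5%) were higher in the tubules and 7 (53.8%) in the choroid plexus, against 12.2% and 68.8% of all genes, with 5 listed at 0 in the tubules. SLC26A1 was within a factor of 2 on TPM + 1, with 1.79 against 0.971 and 0.790 TPM. Its log2 difference was 1.20 with median-of-ratios scaling. The limit set by the naming of genes holds for these shares too.

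Monocarboxylate carriers showed the same division. SLC16A4 had 996 TPM in the tubules from 17955 counts, against 0.338 and 0.406 TPM from 13 and 16 counts. SLC5A12 (SMCT2), a Na+-coupled lactate carrier, had 148 TPM and no count in the choroid plexus, and its high-affinity relative SLC5A8 (SMCT1) was at 1.51 TPM against 0.0546 and 0.0427 TPM. The lactate carrier SLC16A8 (MCT3) was listed at 0 in the tubules, with 76.7 and 78.7 TPM in the choroid plexus. SLC16A12, a creatine carrier, was within a factor of 2, with 45.0 against 76.2 and 68.2 TPM. The dicarboxylate carrier SLC13A3 had 1.69 TPM against 1.65 and 2.49 TPM, while SLC13A2 had 2.44 TPM and no count in the choroid plexus. Of the 13 with an ID, 7 (53.8%) were higher in the tubules and 4 (30.8%) in the choroid plexus, against 12.2% and 68.8% of all genes, with 2 listed at 0 in the tubules. Here, too, names came in part from lists drawn up on this library. SLC51B, the beta subunit of the basolateral bile acid and steroid exporter, had 131 TPM from 122 counts on an effective length of 88.4 bases, while its alpha subunit SLC51A was at 2.55 TPM.

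Organic ion carriers differed by gene. The cation carrier SLC22A2 (OCT2) had 25.5 TPM in the tubules, against 0 and 0.117 TPM. SLC22A6 (OAT1), the anion carrier of the basolateral membrane, had 28.6 TPM against 0.164 and 0.427 TPM. SLC22A8 (OAT3), which shares its substrates in part, was 8.03-fold higher in the choroid plexus. The urate carrier SLC22A12 (URAT1) had 6.78 TPM against 0 and 0.213 TPM, and the exporter ABCG2 had 165 TPM against 0.731 and 0.309 TPM. SLC22A17, the highest transporter of the choroid plexus at 2614 and 2643 TPM, and the thyroid hormone carrier SLCO1C1, at 329 and 296 TPM, were listed at 0 in the tubules. The extruder SLC47A1 (MATE1) was equal in the tubules and the male choroid plexus, at 4.66 TPM, with 3.03 TPM in the female. Among 13 organic ion carriers with an ID, 6 were higher in the tubules and 6 in the choroid plexus (46.2% each), against 12.2% and 68.8% of all genes, with 4 listed at 0 in the tubules. Names of these carriers likewise came in part from lists drawn up on this library.

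**Figure D4:**
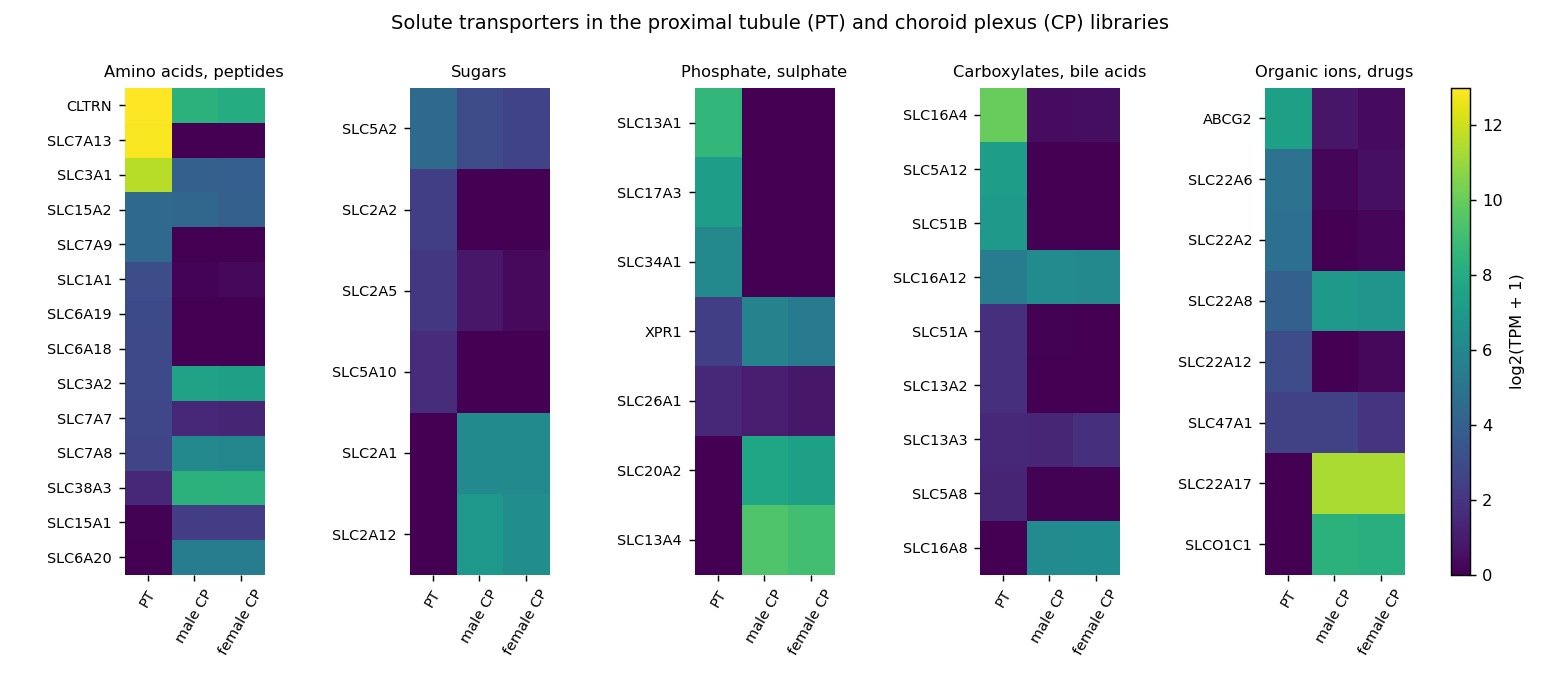
Each cell gives log2(TPM + 1) of a gene in the proximal tubule (PT), male and female choroid plexus (CP) libraries, for the genes of each list that the text names, ordered by their level in the tubules. SLC7A13, SLC13A1, SLC16A4 and ABCG2 are bright in the tubules and dark in both choroid plexus columns, CLTRN is bright in all 3 columns, and SLC13A4 and SLC22A17 are dark in the tubules alone.

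Upstream sequence of the solute carriers higher in the tubules was searched for letters of binding sites of the liver and kidney factors HNF1 and HNF4. The 250 bases before the annotated start were taken from RefSeq on GRCr8, a build other than that of the processed files, for 46 of 59 transporters, pumps and channels higher in the tubules, 173 of 234 higher in the choroid plexus and 27457 gene symbols in all. GTTAAT, a half-site of HNF1, was found on either strand in 6 of 46, 7 of 173 and 7.13% of all. AAAGTCC, letters of an HNF4 site, was found on either strand in 6 of 46, 5 of 173 and 4.36% of all. Both motifs were chosen after a look at these sequences, and a match is no evidence of binding. The SLC34A1 sequence held GTTAAT beginning 147 and 120 bases and AAAGTCC 66 bases before the start, and those of SLC6A18, SLC6A19, SLC3A1 and SLC16A4 held a match each. They are shown as 5 of the carriers described above with a match (SLC51A is a further one), and lie in this order at chr17:9238984-9239233 (minus strand), chr1:31436403-31436652 (plus), chr1:31414494-31414743 (plus), chr6:15394750-15394999 (minus) and chr2:197599190-197599439 (plus), with the matches of either strand in capitals.
SLC34A1: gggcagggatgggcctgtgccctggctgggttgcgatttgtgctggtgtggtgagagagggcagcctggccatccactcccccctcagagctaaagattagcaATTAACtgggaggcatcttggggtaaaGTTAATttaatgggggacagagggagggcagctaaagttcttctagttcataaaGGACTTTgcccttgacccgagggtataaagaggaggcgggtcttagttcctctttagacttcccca
SLC6A18: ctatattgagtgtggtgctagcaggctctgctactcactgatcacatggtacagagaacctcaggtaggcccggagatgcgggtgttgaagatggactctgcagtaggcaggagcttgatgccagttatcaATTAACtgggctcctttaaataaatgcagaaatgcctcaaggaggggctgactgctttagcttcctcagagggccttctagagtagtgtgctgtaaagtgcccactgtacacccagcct
SLC6A19: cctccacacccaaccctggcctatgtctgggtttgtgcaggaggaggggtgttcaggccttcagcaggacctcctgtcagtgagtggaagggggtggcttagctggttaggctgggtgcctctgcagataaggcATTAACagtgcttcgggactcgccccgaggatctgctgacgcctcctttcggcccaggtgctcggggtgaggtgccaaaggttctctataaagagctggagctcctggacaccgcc
SLC3A1: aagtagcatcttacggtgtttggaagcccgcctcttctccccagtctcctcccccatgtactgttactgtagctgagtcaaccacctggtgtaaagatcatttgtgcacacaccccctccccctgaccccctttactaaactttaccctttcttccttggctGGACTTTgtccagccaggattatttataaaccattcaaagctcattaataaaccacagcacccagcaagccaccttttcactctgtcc
SLC16A4: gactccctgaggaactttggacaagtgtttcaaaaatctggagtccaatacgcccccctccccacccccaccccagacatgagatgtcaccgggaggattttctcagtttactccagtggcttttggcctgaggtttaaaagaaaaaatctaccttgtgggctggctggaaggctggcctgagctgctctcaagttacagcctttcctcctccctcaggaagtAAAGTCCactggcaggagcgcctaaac
The SLC7A13 start was not in the table, and no match was found before the starts of SLC13A1, SLC17A3, SLC5A12, SLC7A9, ABCG2, KCNJ16 and KCNJ1.

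Subunits of the Na+/K+-ATPase were higher in the choroid plexus, FXYD2 apart. The beta subunit ATP1B1 had 98.8 TPM in the tubules against 1695 and 1494 TPM, 16.1-fold higher in the choroid plexus, and ATP1B3 7.24 against 258 and 234 TPM. ATP1B2 and the regulator FXYD1 (phospholemman) were listed at 0 in the tubules, with 271 and 221 TPM and 1174 and 1161 TPM in the choroid plexus. The renal regulator FXYD2 was listed at 357 TPM in the tubules from 15 counts on an effective length of 4 bases, so its TPM cannot be set beside that of the other subunits. In all, 6 of 7 genes (85.7%) were higher in the choroid plexus, against 68.8% of all genes, and 3 were listed at 0 in the tubules.

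Of 13 carriers of Na+, H+, Cl- and bicarbonate, 10 (76.9%) were higher in the choroid plexus, against 68.8% of all genes, and 8 of the 13 were listed at 0 in the tubules. Of the 5 with at least 10 counts in the tubules, 2 were higher in either tissue. The 2 that were higher in the tubules are carriers of proximal bicarbonate uptake. SLC9A3 (NHE3), the Na+/H+ exchanger of the brush border, had 3.73 TPM from 191 counts against 0.0109 and 0.0427 TPM. SLC4A4 (NBCe1), the basolateral Na+-bicarbonate cotransporter, had 9.97 TPM against 1.58 and 0.843 TPM. Their choroid plexus counterparts SLC4A5 (NBCe2), SLC4A2 (AE2) and SLC4A10 (NCBE) were listed at 0 in the tubules, with 962 and 761 TPM, 697 and 632 TPM and 355 and 298.5 TPM in the choroid plexus. SLC12A2 (NKCC1) had 5.45 TPM against 292 and 253 TPM, a 50.01-fold difference.

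Of the aquaporins, AQP1 was shared but 15.7-fold higher in the choroid plexus, with 47.7 TPM in the tubules against 787 and 712 TPM. AQP3 and the aquaglyceroporin AQP7 had 10.3 and 9.40 TPM in the tubules, and in the choroid plexus no count and 0 and 0.0427 TPM. AQP4 was within a factor of 2 on TPM + 1, at 1.40 against 3.25 and 3.11 TPM, and AQP11 was listed at 0 in the tubules. The log2 difference of AQP4 was -1.50 with mitochondrially encoded genes kept and -0.11 with median-of-ratios scaling.

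Different K+ channels were high in the 2 tissues. KCNJ16 (Kir5.1, ENSRNOG00000004713), a channel subunit of basolateral membranes, had 236 TPM in the tubules against 0.207 and 0.0640 TPM, from 3656, 7 and 2 counts. KCNJ1 (ENSRNOG00000059005) had 89.3 TPM against 0 and 0.0213 TPM (1 count). KCNJ10 (Kir4.1), with which KCNJ16 forms channels, was listed at 0 in the tubules, and KCNJ15 (Kir4.2), its other partner, had 2.47 TPM against 0.666 and 0.619 TPM. KCNJ13 (Kir7.1), the channel of the choroid plexus, was listed at 0 in the tubules, with 1497 and 1275 TPM there, and so was KCNK1, with 172 and 148 TPM. In all, 3 of 10 K+ channels were higher in the tubules and 6 in the choroid plexus, against 12.2% and 68.8% of all genes, and 7 of the 10 were listed at 0 in the tubules.

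Of 17 metal transporters, 11 (64.7%) were higher in the choroid plexus, a share near the 68.8% of all genes, and 4 were listed at 0 in the tubules. The copper importer SLC31A1 (CTR1) was high in both tissues, with 137 TPM against 512 and 434 TPM. The zinc and manganese importer SLC39A8 (ZIP8) was higher in the tubules, at 7.32 against 0.840 and 0.832 TPM. The iron importer SLC11A2 (DMT1) had 2.19 TPM against 51.3 and 43.0 TPM. PDZD11, a partner of membrane Ca2+ and copper pumps, was higher in the tubules at 280 against 130 and 98.2 TPM, but its log2 difference was -0.43 with the mitochondrially encoded genes kept.

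Of the 370 transporters, pumps and channels, 131 had at least 10 counts in the tubules, and 22 of these (16.8%) were within a factor of 2 of both choroid plexus libraries, against 1424 (23.6%) of the 6043 genes at that count. Besides SLC16A12, SLC15A2 and SLC47A1, these included the Mg2+ transporter MAGT1 (72.2 against 46.8 and 40.9 TPM), the zinc exporter SLC30A4 (15.5 against 31.2 and 27.2 TPM) and the connexin GJB2 (13.45 against 13.3 and 11.5 TPM). SLC24A5 followed with 9.43 against 16.2 and 12.2 TPM, then the lipid flippase ATP11B with 8.97 against 10.9 and 9.43 TPM and the sialic acid exporter SLC17A5 with 5.77 against 8.75 and 6.70 TPM. A place within a factor of 2 depended on the scaling. With mitochondrially encoded genes kept, the log2 differences of SLC16A12, SLC30A4 and SLC15A2 were -2.32, -2.40 and -1.20. Those of MAGT1 and SLC47A1 were then -0.98 and -0.99. With median-of-ratios scaling, those of MAGT1, SLC15A2 and SLC47A1 were 1.73, 1.38 and 1.09. Those of SLC16A12 and SLC30A4 were then 0.35 and 0.12. Of the transporters and pumps that the study lists for the tubules, 47 (45.6%) were higher there and 39 (37.9%) in the choroid plexus, and of its 27 channels 12 and 8. Those lists were drawn up on this same library, so they are no independent evidence of a direction.

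Large protein complexes that both tissues share did not move as units. Of 76 nuclear genes of the respiratory chain and ATP synthase, 30 (39.5%) were higher in the tubules and 27 (35.5%) in the choroid plexus, against 12.2% and 68.8% of all genes. At least 10 counts in the tubules were found for 73 of them, and of all genes at that count 27.8% and 42.2% were called. The median difference was 0.48, but -1.24 with mitochondrially encoded genes kept and 1.498 with median-of-ratios scaling. Of the 76, 34 had an effective length under 300 bases. Of these 34, 52.9% were higher in the tubules and 20.6% in the choroid plexus. All genes of that length with at least 10 counts had 64.4% and 15.6%. The part of length in this list was not tested. ATP5F1C, the gamma subunit of the ATP synthase, had 2436 TPM in the tubules against 358 and 358 TPM. The alpha subunit ATP5F1A had 53.6 TPM against 1021 and 955 TPM, and the beta subunit ATP5F1B 197 against 1622 and 1598 TPM. The gamma subunit was therefore 45.5 times as high as the alpha subunit in the tubules, while the alpha subunit was 2.85 and 2.67 times as high as the gamma subunit in the male and female choroid plexus. COX7C, a short subunit of cytochrome c oxidase, had 9680 TPM against 580 and 657 TPM. The lists of complexes, and the members named, were put together with their values known. Their genes were taken from the highest choroid plexus genes with a name, so subunits low in the choroid plexus could not enter. The spread of levels in the choroid plexus was thus limited by this choice, and that in the tubules was not.

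The vacuolar H+-ATPase, which acidifies endosomes and secretes protons in the tubule, differed in the same way. ATP6V1D of the cytosolic V1 part had 736 TPM in the tubules against 216 and 200.3 TPM, and ATP6V1G1 807 against 273 and 280.1 TPM. ATP6V0D1 of the membrane V0 part had 6.92 TPM against 283 and 247 TPM, and ATP6V0B was listed at 0. ATP6V1D was 106 times as high as ATP6V0D1 in the tubules, against 0.764 and 0.811 in the male and female choroid plexus. In all, 3 of 16 subunits (18.75%) were higher in the tubules and 9 (56.25%) in the choroid plexus, against 12.2% and 68.8% of all genes. The cytosolic ribosomal proteins had 44 of 77 genes (57.1%) higher in the tubules and 19 (24.7%) in the choroid plexus, with 3 listed at 0. At least 10 counts in the tubules were found for 73 of the 77, and of all genes at that count 27.8% and 42.2% were called. The median difference was 1.46, but -0.27 with mitochondrially encoded genes kept. Of the 77, 41 had an effective length under 300 bases. Of these 41, 73.2% were higher in the tubules and 19.5% in the choroid plexus. All genes of that length with at least 10 counts had 64.4% and 15.6%. The part of length in this list was not tested. Of 26 proteasome subunits, 7 (26.9%) were higher in the tubules and 12 (46.2%) in the choroid plexus, against 12.2% and 68.8% of all genes. In the tubules 5 of the 26 were listed at 0, and 21 had at least 10 counts. Of these 21, 7 were higher in the tubules and 7 in the choroid plexus, against 27.8% and 42.2% of all genes at that count.

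**Figure D5:**
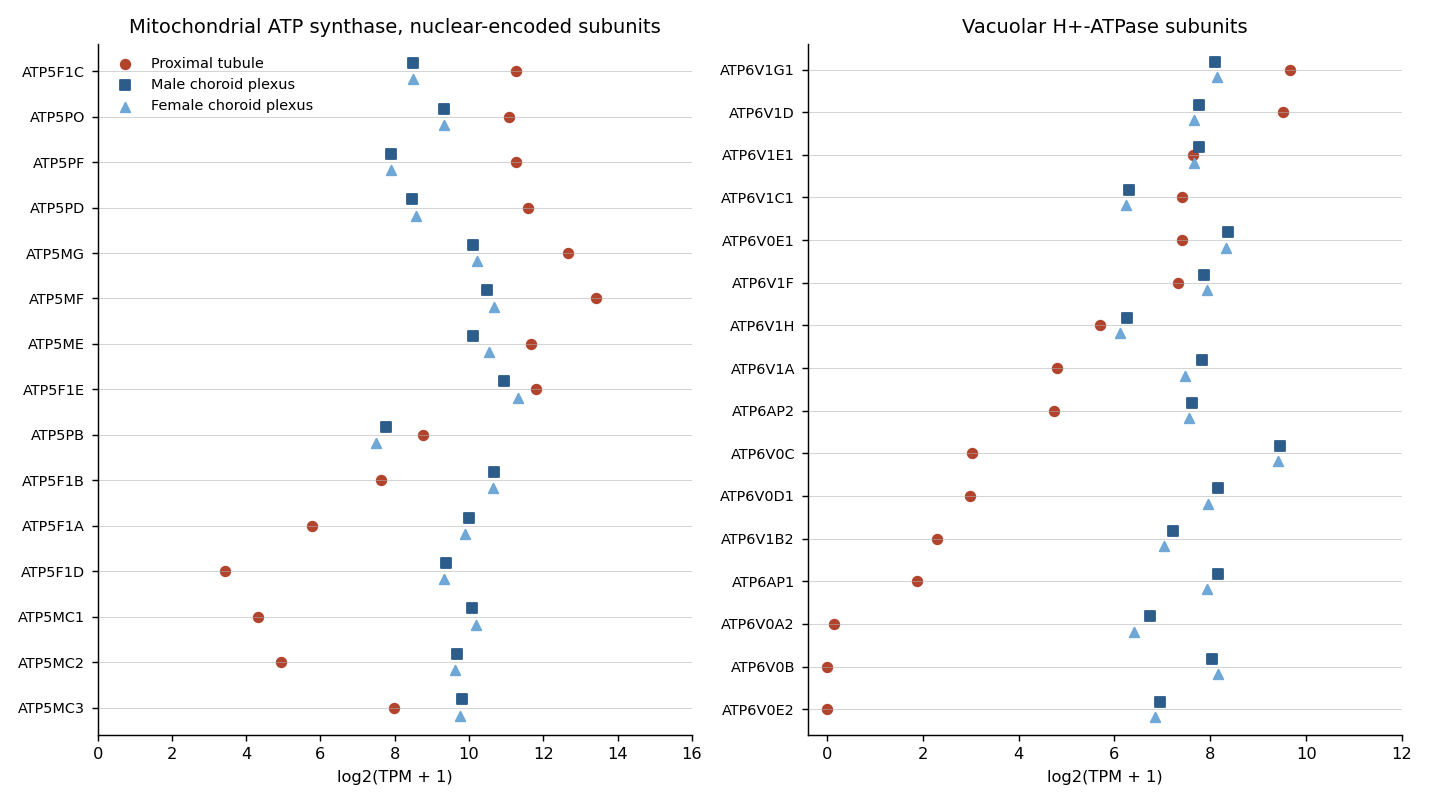
log2(TPM + 1) of nuclear-encoded subunits of the mitochondrial ATP synthase (left) and of the vacuolar H+-ATPase (right), with 1 point for the proximal tubule (circle), the male (square) and the female (triangle) choroid plexus. The choroid plexus points lie between 180 and 2535 TPM for the ATP synthase and between 68.3 and 698 TPM for the H+-ATPase, and the tubule points run from 9.75 TPM for ATP5F1D to 10855 TPM for ATP5MF, and from ATP6V0B, listed at 0, up to 807 TPM for ATP6V1G1. Subunits low in the choroid plexus could not enter, which limits the range of its points.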

How the data were processed

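The members, gene lists and motifs were chosen with earlier results of these data known. The authors aligned reads of paired ends with STAR 2.7.2a to Rnor_6.0 and ran RSEM 1.3.3, and deposited an expected count, an estimate by RSEM, a TPM and an effective length per gene ID. The strand setting of the counting is not given in the sources used here, so overlapping genes and near-identical copies are uncertain. Total expected counts per library were 25130213 to 28324976 in the libraries compared.

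Ratios were computed (pandas 2.3.3, scipy 1.17.1 and numpy 2.4.6 under Python 3.11.15) on the deposited TPM without the 13 mitochondrially encoded genes, and were tested on simulated data. Figures were drawn with matplotlib 3.10.9. No test across genes was run, since each group had 1 library. Intervals are exact Clopper-Pearson intervals at 95% on the share of expected counts, scaled by the counts that 1 TPM of the gene is worth in each library. The floor was 3 counts. The study's supplementary lists paired 2452 IDs with a name, and 0 IDs matched the RefSeq table. Named genes are members of the lists of transport and marker genes, the 10 highest genes of the tubules, the 10 largest named differences in each direction and the 10 highest transporters or channels within a factor of 2. Genes outside this rule are said to be chosen after their values were seen. Alternatives were other cut-offs, count minimums, pseudocounts, scalings, choroid plexus libraries and gene sets. Some genes are not reported here.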

Additional observations from a re-analysis of the deposited data

How the results depend on the processing

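No paired analysis was possible because each group had 1 library. With mitochondrially encoded genes kept, 683 genes were higher in the tubules, in place of 1689, the median log2 difference of the ribosomal proteins was -0.27 and the log2 difference of PDZD11 -0.43. With IDs that have a name alone, the genes higher in the tubules numbered 309, those higher in the choroid plexus 1759, those shared 1381, those in the tubules alone 49 and those in the choroid plexus alone 968. With at least 10 counts required in the tubules, chosen after seeing the data, 2597 genes were higher in the choroid plexus in place of 9516. A cut-off of 5 TPM left 2931 shared genes in place of 5458, and the genes in the tubules alone were 321 at 0.1 TPM and 188 at 1 expected count, in place of 511. Against the FACS library, the log2 difference of SLC2A5 and the median of the sugar carriers were -0.18. These 5 counts stayed within a factor of 1.5 under the other alternatives. Counts within gene lists, and of genes within a factor of 2, were not recomputed. The pseudocounts of 0.1 and 0.5 and either choroid plexus library alone ended none of the 55 calls of listed genes that are named here and above 0 in the tubules, keeping the mitochondrially encoded genes ended 14, median-of-ratios scaling 2 (HBB and SLC31A1), the FACS library 4 (these, SLC2A5 and SLC7A7) and removal of the 10 highest genes 1 (PDZD11). Depth limits genes near the cut-off, and with 1 library a group the spread between animals is unknown. Cut-offs and count minimums do not enter the ratio of a gene or the median of a list, and the alternatives without a minimum and with 50 counts were not applied to the counts of genes higher or alone in the choroid plexus.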
